A study of Mus musculus with 2 samples.

Results

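The miR-30 family of mouse comprises the 7 annotated genes Mir30a, Mir30b, Mir30c-1, Mir30c-2, Mir30d, Mir30e and Mir30f, chosen here by their GENCODE M21 gene names from 2202 annotated miRNA genes. All 7 were found in the count tables. RNA fragments below 30 nucleotides were sequenced from cortical tissue (left cerebral cortex) of 2 males of the hybrid strain B6CASTF1/J, the first generation of a cross of C57BL/6J and CAST/EiJ. The mice were aged 2 months, and the labels name no engineered allele and no treatment. The animals were numbered male 3 (library 1) and male 4 (library 2). The labels give both the same donor identifier, so the spread between them may be partly technical. The 2 libraries form 1 group, and no condition was compared.

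MicroRNAs are short RNAs cut from hairpin precursors, which are themselves cut from longer transcripts. Loaded into an Argonaute protein, they lower the output of messenger RNAs that pair with the seed, the bases near the 5′ end of the miRNA. The miR-30 genes are widely expressed in mammalian tissues. Targets described for miR-30a include the messengers of the neurotrophin Bdnf and of the autophagy protein Beclin 1.

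The mature sequences show what the family shares. RefSeq sequences (GRCm38.p6) were matched for 5 of the 7 genes, Mir30a, Mir30c-1, Mir30c-2, Mir30e and Mir30f. The 5p arms are shown first, 5′ to 3′, with the seed (bases 2 to 8) in capitals, because one seed joins the genes and the bases after it separate them. Mir384 lies outside the family by name, but it was the other gene among the 5 in the table that carry this seed.
miR-30a-5p: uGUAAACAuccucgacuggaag
miR-30e-5p: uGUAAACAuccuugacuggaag
miR-30c-5p: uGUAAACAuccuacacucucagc
miR-384-5p: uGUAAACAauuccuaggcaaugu
Counted from the 5′ end, miR-30a-5p and miR-30e-5p differed at 1 of 22 bases (C13U). miR-30a-5p and miR-30c-5p had the same first 12 bases and differed at 5 of the 22 compared (C13A, G14C, G18C, G19U and A20C). miR-384-5p matched miR-30a-5p over the first 8 bases and differed at 10 of 22 in all. Mir30c-1 and Mir30c-2 encode the same 5p arm.

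The 3p arms found in the table, from the other side of each hairpin, fell into 2 seed groups. One was of Mir30a and Mir30e and one of the paired Mir30c genes. Mir30b and Mir30d had no mature arm in the table, so neither entered this grouping or the search below.
miR-30a-3p: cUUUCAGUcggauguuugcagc
miR-30e-3p: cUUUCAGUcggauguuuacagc
miR-30c-1-3p: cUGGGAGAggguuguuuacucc
miR-30c-2-3p: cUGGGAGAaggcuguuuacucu
The first pair differed at 1 base (G18A). The second differed at 3 bases (G9A, U12C and C22U), so these genes, which cannot be told apart by their 5p arms, differ in their 3p arms. Of 1679 distinct mature arms in the table, 3 (0.179%) held UGUUUAC, the stretch complementary to the 5p seed. These were the 3p arms of Mir30c-1, Mir30c-2 and Mir30e, each at bases 13 to 19. The base that kept miR-30a-3p out of this set was the one named above, G18A.

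Mir30f was annotated on the strand opposite Mir30e, and its mature sequence is shown with the stretch equal to the family's seed in capitals.
miR-30f: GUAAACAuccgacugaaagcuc
The stretch stood at bases 1 to 7, 1 base nearer the 5′ end than in the other 5p arms, so that bases 2 to 8 of miR-30f were not shared with any other mature arm in the table. By annotation, miR-30f and miR-30e-3p overlap on opposite strands over 19 positions, so all 19 bases are complementary by position.

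The genes lie in 3 clusters (mm10 coordinates, GENCODE M21 annotation). On chromosome 1, plus strand, Mir30a (ENSMUSG00000065405.3; 23272269 to 23272339) overlapped no other annotated gene. Mir30c-2 (ENSMUSG00000065567.1; 23291701 to 23291784), 19361 bases further on, lay within an exon of the long non-coding RNA gene Gm27028. On chromosome 15, minus strand, Mir30d (ENSMUSG00000065437.1; 68341208 to 68341289) lay within an exon of the long non-coding RNA gene Gm20732, and 9 of its bases also overlapped the transcript Gm37296. Mir30b (ENSMUSG00000065476.2; 68337415 to 68337510) was 3697 bases away, and 16 of its bases overlapped an exon of the processed transcript Gm26621. On chromosome 4, minus strand, Mir30e (ENSMUSG00000065409.1; 120772606 to 120772697) and Mir30c-1 (ENSMUSG00000065490.1; 120769534 to 120769622) lay 2983 bases apart in an intron of Nfyc, which encodes a subunit of the transcription factor NF-Y. Mir30f (ENSMUSG00000105585.1) had the same coordinates as Mir30e on the plus strand.

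Library 1 held 3827158 and library 2 held 4553291 reads on the annotated strand of miRNA genes. Levels are given as counts per 1000000 of these reads (CPM). The minimum for calling a gene detected was 10 reads in each library, which 406 of 2202 genes (18.4%) passed. The 5 forebrain neuron miRNA genes listed (Mir132, Mir128-1, Mir137, Mir138-1 and Mir138-2) were all detected and summed to 74728 and 50899 CPM. Mir132, Mir128-1 and Mir137 were higher in library 1 (log2 ratios of library 1 over library 2 of 0.69, 1.12 and 0.09). Mir138-1 and Mir138-2 were higher in library 2 (-0.45 and -0.40). The 5 listed miRNAs of the Hox clusters, which mark hindbrain and spinal cord, summed to 28.5 and 40.6 CPM, and Mir196a-1 was at 0. The liver miRNA Mir122 stood at 72.4 and 78.6 CPM. The 4 listed genes of choroid plexus and ciliated cells were detected and summed to 718 and 722 CPM. The 3 genes of red blood cells were detected and summed to 134 and 1549 CPM. Mir451a had 223 and 6459 reads and Mir144 had 94 and 437, whereas Mir486 went the other way with 195 and 158. The part of blood in the values below was not tested. In bulk tissue, fewer cells of a type and less RNA per cell cannot be told apart.

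Of the 7 family genes, 6 were detected, and Mir30f had no read on its own strand. Mir30d was the highest. It had 32637 reads in library 1 and 37305 in library 2, or 8528 and 8193 CPM, a mean of 8360 ± 237 CPM (SD, n = 2), and ranked 26th and 25th among all genes. Mir30a followed with 19170 and 22491 reads, or 5009 and 4940 CPM (4974 ± 49.1 CPM). Mir30e had 10019 and 12236 reads, or 2618 and 2687 CPM (2653 ± 49.1 CPM). These 3 genes stood apart from the other members, and for each the libraries lay close together.

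The remaining detected members were far lower. Mir30c-2 had 1282 and 2218 reads, or 335 and 487 CPM (411 ± 108 CPM, SD, n = 2). Mir30c-1 had 745 and 1073 reads, or 195 and 236 CPM (215 ± 29.0 CPM). Mir30b, the partner of the member with the most reads, was the lowest with 468 and 774 reads, or 122 and 170 CPM (146 ± 33.7 CPM). All 3 were lower in library 1 than in library 2.

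The order Mir30d, Mir30a, Mir30e, Mir30c-2, Mir30c-1, Mir30b was the same in both libraries, and no neighbours in it had overlapping values. The widest step was from Mir30e to Mir30c-2, with a 7.82-fold lower level in library 1 and a 5.52-fold lower one in library 2. Reads that fit both Mir30c genes were counted for neither, and their part in the size of this step was not tested. The narrowest was from Mir30c-1 to Mir30b, 1.59-fold and 1.39-fold, where the lowest value of Mir30c-1 (195 CPM) was close to the highest of Mir30b (170 CPM). From Mir30d to Mir30b the level fell 69.7-fold in library 1 and 48.2-fold in library 2. The annotated hairpins were 71 to 96 bases long. Dividing CPM by this length, a check added after the data were seen, left the order the same. Lengths this alike could not have reversed steps of this size, so the check gives no support for the order.

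**Figure D1:**
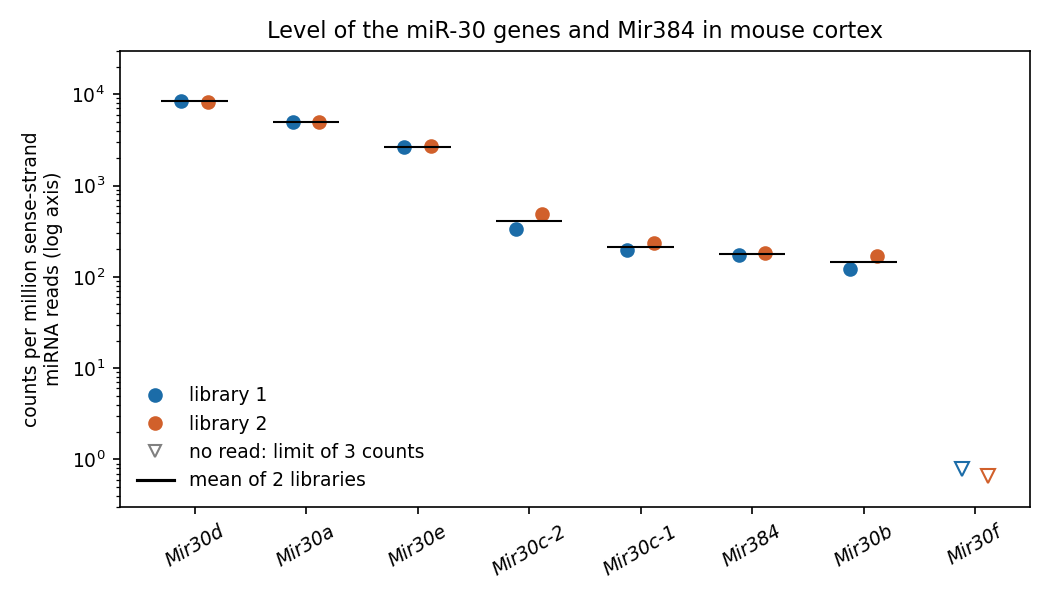
Level of each miR-30 gene and of Mir384, in CPM on a log axis, for library 1 (blue) and library 2 (orange), with the mean as a line and the limit of 3 counts as an open triangle where there was no read. Mir30d, Mir30a and Mir30e lie at 2618 CPM or above in both libraries, whereas Mir30c-2, Mir30c-1 and Mir30b lie at 487 CPM or below. Reads that fit both Mir30c genes are counted for neither.

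The counts of the paired Mir30c genes carry a limit from their sequence. Both hairpins are shown with the longest stretch they have in common in capitals, because it covers the whole 5p arm.
Mir30c-1 hairpin: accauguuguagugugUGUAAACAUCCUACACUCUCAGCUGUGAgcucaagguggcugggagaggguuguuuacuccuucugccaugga
Mir30c-2 hairpin: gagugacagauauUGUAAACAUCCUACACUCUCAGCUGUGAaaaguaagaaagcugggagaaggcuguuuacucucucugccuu
The shared stretch was 28 bases long, at bases 17 to 44 of the first and 14 to 41 of the second. A read within it fits both loci equally well, and the deposited tables keep a tally of reads mapped to several places apart from the genes (41.7% of all reads in library 1 and 41.1% in library 2). How many of these came from miR-30c-5p was not tested, and the levels of Mir30c-1 and Mir30c-2 cannot be read as the level of miR-30c. For Mir30a and Mir30e the longest stretch shared with any other hairpin in the RefSeq table was 18 bases, shared by these genes with each other.

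Leaving out reads mapped to several places, the family together held 64321 reads in library 1 and 76097 in library 2. This was 1.68% (Wilson interval at 95%, 1.668 to 1.694%) and 1.67% (1.660 to 1.683%) of the annotated-strand miRNA reads, a mean of 1.68% ± 0.00664 (SD, n = 2). The shares differed by 1.01-fold, which did not pass a two-sided Fisher's exact test (p = 0.292). Annotated-strand miRNA reads, the total used here, made up 33.7% of all reads in library 1 and 35.1% in library 2. With all reads as the total, the family's share was not compared between the libraries. No direction or likeness is given on that scale. Intervals here and below cover counting error only, since the reads carry no molecular identifiers and may be copies of one molecule.

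Mir30d alone supplied 50.7% of the family's reads in library 1 and 49.0% in library 2. Mir30a supplied 29.8% and 29.6%, and Mir30e 15.6% and 16.1%. The other detected genes, Mir30c-2, Mir30c-1 and Mir30b, had mean shares of 2.45%, 1.28% and 0.872%. By cluster, the chromosome 15 pair held 51.5% and 50.04% of the family's reads, the chromosome 1 pair 31.8% and 32.5%, and the chromosome 4 pair 16.7% and 17.5%. Each cluster thus held a similar portion of the family's counted reads in both animals, and in each cluster 1 gene supplied most of them. The lower gene of the chromosome 1 and chromosome 4 pairs is a Mir30c gene, whose counts leave out reads that fit both copies. These shares therefore describe counted reads and not the full makeup of the family.

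The sum was set against the let-7 family (12 genes) and the miR-29 family (4 genes). The let-7 family held 17.8 reads for each miR-30 read in library 1 and 20.8 in library 2. The odds ratio of miR-30 over let-7 between the libraries was 1.17 (95% Woolf interval 1.159 to 1.184; two-sided Fisher's exact test, Benjamini-Hochberg adjusted over the 2 families, p = 7.52e-182). The miR-29 family held 0.853 and 0.590 reads for each miR-30 read, an odds ratio of 0.691 (0.680 to 0.703), with a p too small for the test to return above 0. Relative to library 2, the miR-30 sum in library 1 was thus higher against let-7 and lower against miR-29. These tests compare 2 libraries with counting error alone. Each family's sum leaves out reads mapped to several places, and how many of those came from these families was not tested. The ratios therefore compare counted reads and not full family levels.

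Between the libraries, 4 of the 6 members tested differed by an exact binomial test (two-sided, Benjamini-Hochberg adjusted over the 508 genes with 10 or more reads in total), in which 48.4% of genes were called. On the scale of miRNA reads, 1 was higher in library 1 (25.2% of all genes tested) and 3 in library 2 (23.2%), and the sign of the first, Mir30d, turned when all reads of a library were the total. With so few members, and with a test that calls small differences at high depth, these counts do not set the family apart. The members' median log2 ratio of library 1 over library 2 was -0.16, against -0.0031 over all genes tested that had a ratio (507). With the sign left out, the median log2 ratio was 0.17 for the members and 0.41 for all these genes. Genes entered with 10 or more reads in total, whereas the lowest member tested, Mir30b, had 468 and 774. Counting error in a ratio is larger at few reads, and the medians were not matched for depth, so they do not set the family apart.

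The 3 highest members differed by at most 1.04-fold and the 3 lowest detected ones by 1.21-fold to 1.45-fold. Mir30d differed by 1.04-fold per miRNA read (log2 ratio 0.06, 95% exact interval 0.036 to 0.079, exact binomial adjusted p = 4.50e-07), with a log2 ratio of -0.0021 per read of the whole library (exact binomial adjusted p = 0.899). Mir30a and Mir30e differed by 1.01-fold and 1.03-fold and did not pass the test (exact binomial adjusted p = 0.253 and 0.0993). Mir30c-2 was 1.45-fold higher in library 2 (log2 ratio -0.54, -0.64 to -0.44, exact binomial adjusted p = 1.59e-26). Mir30b was 1.39-fold higher there (log2 ratio -0.48, -0.64 to -0.31, exact binomial adjusted p = 4.89e-08), and Mir30c-1 1.21-fold (log2 ratio -0.28, -0.41 to -0.14, exact binomial adjusted p = 0.000178). The low members thus carried the larger differences, and each of these was higher in library 2.

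The calls above allow for counting error only. The spread beyond counting error over all genes tested was a coefficient of variation of 33.3% (edgeR common dispersion). With edgeR's exact test at that dispersion 4 of 508 genes (0.787%) passed and 25 had an unadjusted p under 0.05, none of them a family member. That test sets 1 library against 1 with a dispersion from the same libraries, so the missing calls do not show that the members were alike, and the fitted log2 ratios were of similar size (-0.52 for Mir30c-2 and -0.46 for Mir30b). The lowest unadjusted p in the family was 0.450, for Mir30c-2. Dividing by all reads of each library instead of the miRNA reads turned the sign at Mir30a as well (log2 ratio -0.040, exact binomial adjusted p = 0.0118), so no direction is given for Mir30d and Mir30a.

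**Figure D2:**
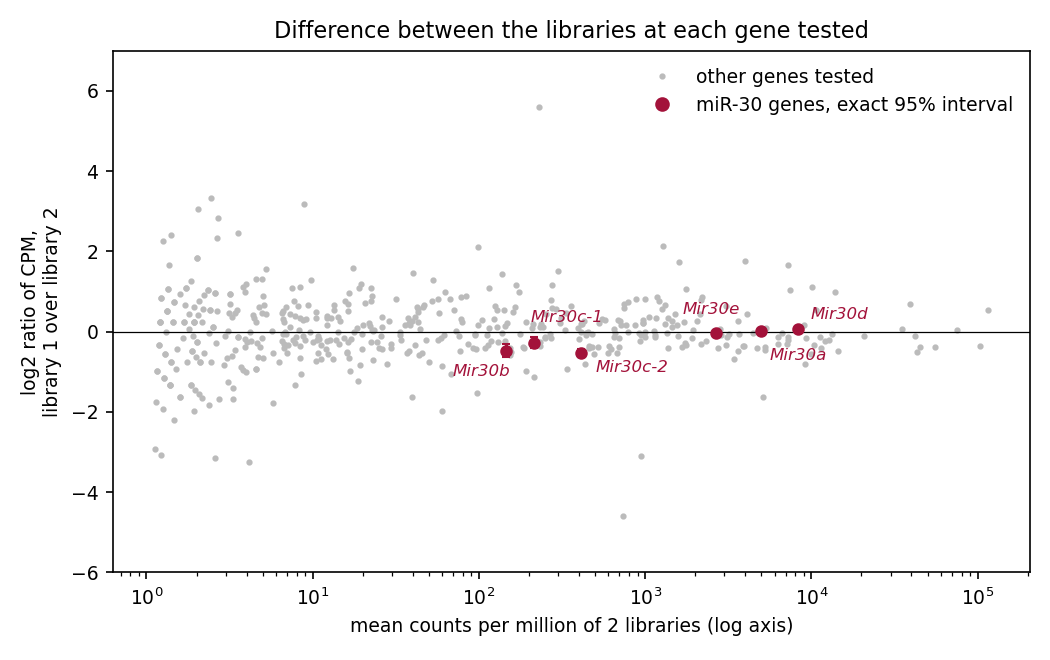
Log2 ratio of CPM, library 1 over library 2, against the mean CPM on a log axis for the genes tested that had a ratio (grey) and the 6 detected miR-30 genes (red, with exact 95% intervals). Mir30d, Mir30a and Mir30e lie within 0.06 of 0, and Mir30c-2, Mir30b and Mir30c-1 lie at -0.54, -0.48 and -0.28.

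Neighbours in a cluster can be cut from a shared transcript, and the ratio of their reads within a library needs no scaling for library size. Whether RNAs of different sequence were captured equally well was not tested, so these are ratios of reads and not of RNA amounts. Mir30d had 69.7 reads for each read of Mir30b in library 1 (exact interval at 95%, 63.7 to 76.6) against 48.2 in library 2 (44.9 to 51.8), a mean of 59.0 ± 15.2 (SD, n = 2). Mir30a had 14.95 reads for each of Mir30c-2 in library 1 (14.1 to 15.8) and 10.1 in library 2 (9.71 to 10.6), a mean of 12.5 ± 3.40. Mir30e had 13.4 for each of Mir30c-1 in library 1 (12.5 to 14.5) and 11.4 in library 2 (10.7 to 12.1), a mean of 12.4 ± 1.45. The ratio was higher in library 1 in all 3 clusters, and the intervals of the libraries did not overlap in any of them.

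By two-sided Fisher's exact tests adjusted over the 3 clusters, the odds ratio between libraries was 1.47 for Mir30a over Mir30c-2 (95% Woolf interval 1.37 to 1.58, p = 1.15e-26). It was 1.45 for Mir30d over Mir30b (1.29 to 1.62, Fisher's exact p = 3.75e-10) and 1.18 for Mir30e over Mir30c-1 (1.07 to 1.30, Fisher's exact p = 0.000848). These tests again allow for counting error only. They use the same counts as the tests of single members, so they restate those differences and are not a separate result. The lower member of the chromosome 1 and chromosome 4 pairs is a Mir30c gene, whose counts leave out reads that fit both copies.

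**Figure D3:**
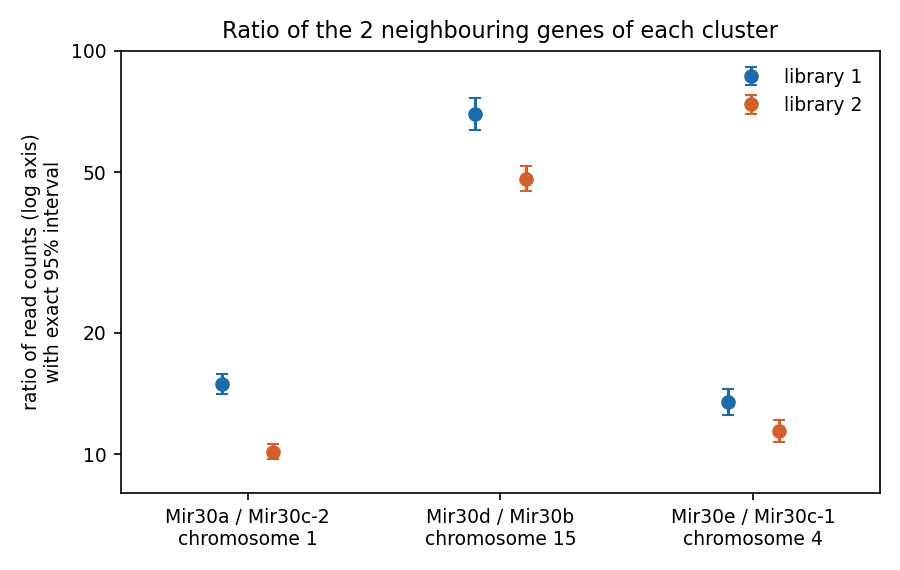
Ratio of the read counts of the neighbouring genes of each cluster, on a log axis, in library 1 (blue) and library 2 (orange) with exact 95% intervals. In each cluster the ratio is higher in library 1, and it is largest for Mir30d over Mir30b at 69.7 and 48.2.

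The strand of the reads separated Mir30e from Mir30f. Mir30e had 10019 and 12236 reads on its own strand and 0 in the opposite-strand column. Mir30f had 0 on its own strand, and its opposite-strand column held 10019 and 12236, the same reads counted from the other side. A count of 0 allowed up to 0.784 CPM for Mir30f in library 1 and 0.659 CPM in library 2. In the column that ignores strand both genes stood at 0, and reads that fit more than 1 gene were tallied as ambiguous. The number of Mir30e reads came to 3.61% of that tally in library 1 and 3.65% in library 2. The other 5 members had 0 opposite-strand reads against 54302 and 63861 on their own strand, which allowed a share of up to 0.0055% and 0.0047%, and their counts were the same with strand ignored.

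**Figure D4:**
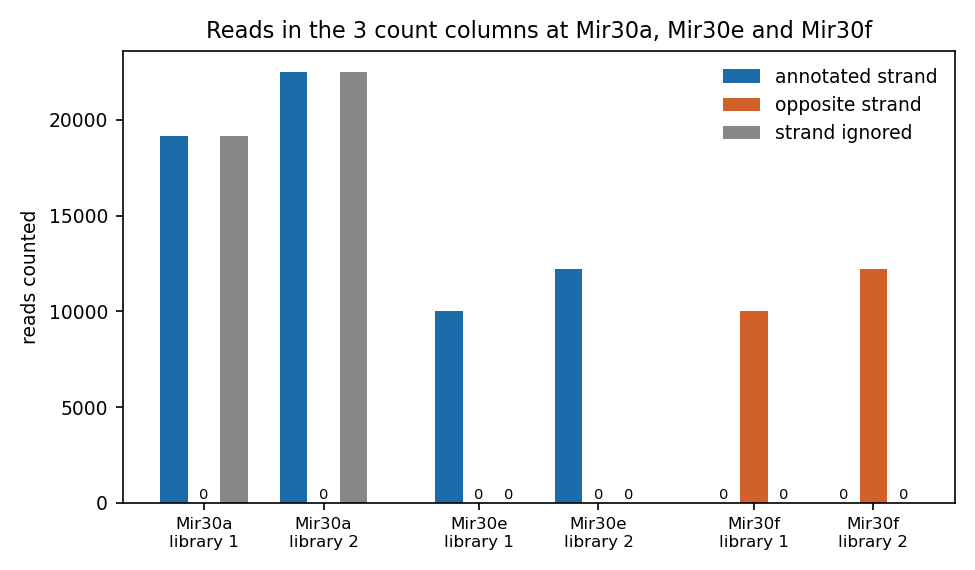
Reads in the 3 count columns (annotated strand, opposite strand, strand ignored) at Mir30a, Mir30e and Mir30f in each library. Mir30a has the same count with and without strand, Mir30e has reads in the annotated-strand column and none with strand ignored, and Mir30f has them in the opposite-strand column.

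Mir384 shares the 5p seed of the family and is known from work on synaptic plasticity. It lies on chromosome X, minus strand (ENSMUSG00000065499.1; 105344282 to 105344369), and overlapped no other annotated gene. It had 662 and 826 reads, or 173 and 181 CPM, a mean of 177 ± 5.96 CPM (SD, n = 2), between Mir30c-1 and Mir30b with no overlap of values with either. Its libraries differed by 1.05-fold, which did not pass the test (exact binomial adjusted p = 0.483). With Mir384 the summed share rose from 1.68% to 1.70% in library 1 and from 1.67% to 1.69% in library 2, so that nearly all counted reads at genes with this seed or of this family came from Mir30d, Mir30a and Mir30e. Arms of a hairpin were not separated in the counts, so the reads per seed cannot be given.

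The 3 genes outside the family nearest to Mir30d, by the distance of log2 CPM over the 2 libraries, were Mir149 (8831 and 8253 CPM), Mir191 (9461 and 8492 CPM) and Mir382 (8813 and 9762 CPM). Their distances on the log2 scale were 0.052, 0.16 and 0.26. With 2 libraries, such a likeness describes a level more than a pattern.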

How the data were processed

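For each library the authors deposited a table of raw read counts, 1 whole number per miRNA gene and not normalized, for mm10 and GENCODE M21, per the labels and the deposited descriptions. Each table has a column that ignores strand, 1 for the annotated strand and 1 for the opposite strand, and 4 tally rows, which stayed out of library sizes. Aligner, counter and trimming: not given in the sources used here.

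Genes were matched by identifier to GENCODE M21. CPM, exact binomial tests and exact, Wilson and Woolf intervals used the annotated-strand counts (Python 3.11.15, scipy 1.17.1). A p-value under 0.05 after Benjamini-Hochberg adjustment was a call. Dispersion and the exact test used edgeR 4.0.16 with TMM factors, and DESeq2 1.42.0 gave alternative size factors (R 4.3.3). The tests were tested on simulated data. Of the tallies, 19.6% and 18.9% of reads were unmapped and 5.03% and 4.94% lay outside the annotated strand of miRNA genes.

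The members and lists were chosen with earlier results of these data known. Named are the members, genes with the same 5p seed, and the 3 genes nearest to the highest member. Comparison families and markers are named only for their checks. The arms of a hairpin, isomiRs and the 2 parental alleles were not separated.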

Additional observations from a re-analysis of the deposited data

Results flagged for a closer look

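Some reads lay outside the gene counts and were not analysed. Reads with several mapping places amounted to 41.7% in library 1 and 41.1% in library 2, and uniquely mapped reads outside the annotated strand of miRNA genes made up 5.03% and 4.94%. The tables do not tie these reads to a gene, so the portion from miR-30 loci was not tested.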

How the results depend on the processing

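The family's share of miRNA reads (1.68%) was 1.67 to 1.68% with 1 library left out. It was 1.52% in the column that ignores strand, which gives Mir30e no read, 0.576% of all reads, and 3.93% without the 10 leading genes in the denominator. With edgeR's exact test, 1 library against 1, 0 of the 4 called members passed, and the other alternatives called 4 or 5 members. Of 47 log2 ratios of members under alternatives, 39 kept their direction and side of the threshold, 4 lost the call in the same direction (with edgeR's exact test), 2 gained it in the same direction and 2 reversed. The reversals came with all reads as totals and also crossed the threshold: Mir30a (-0.040) gained a call and Mir30d (-0.0021) lost its call. The mean ratios within clusters had leave-one-out ranges of 10.1 to 14.95 for Mir30a over Mir30c-2, 48.2 to 69.7 for Mir30d over Mir30b and 11.4 to 13.4 for Mir30e over Mir30c-1. With strand ignored the last could not be computed. The family comparison limited to hairpins without a shared stretch of 20 bases was not run, since hairpins of Mir30b, Mir30d and Mir30f were not used here. No paired analysis was possible because the libraries form 1 group.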
